A study of Homo sapiens with 8 samples.

Results

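The genes of sterol synthesis, of fatty acid synthesis and of the SREBP pathway that switches both on were followed by RNA-seq in the lung adenocarcinoma lines ABC1 and HCC4006, with and without an electrophile. The genes were chosen by name, with earlier results of these data known. Counts of them set beside those of all genes therefore describe the list and are no test of it. They number 33, of which 18 belong to sterol synthesis, 3 to the supply of acetyl-CoA and acetoacetyl-CoA, 6 to fatty acid synthesis and desaturation, and 6 to the SREBP pathway and sterol transport. By symbol, 32 of the 33 were matched to one of the 57815 gene identifiers measured, 55534 of which had a symbol. *ACACA*, acetyl-CoA carboxylase, was not matched with the name table used here and is not reported. The libraries fall into 4 groups of 2: ABC1 with the vehicle DMSO, ABC1 with DEM, HCC4006 with the vehicle DMSO and HCC4006 with DEM, where DEM was given at 100 μM for 16 h. DEM is diethylmaleate in the study's methods, an electrophile that inhibits KEAP1, the protein that keeps the transcription factor NRF2 low. Both lines carry no mutation of *KEAP1* or *NRF2* by their labels, and all cells grew in low-glucose DMEM with fetal bovine serum, so that serum lipids were present in every group. The study's methods describe the libraries of a group as biological duplicates, and each line is a single model.

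Cells build sterols from acetyl-CoA by way of mevalonate, the isoprenoid farnesyl diphosphate and squalene, which is closed to lanosterol and then trimmed to cholesterol. Fatty acids are made from the same acetyl-CoA by fatty acid synthase and are then lengthened by elongases and given double bonds by desaturases. The SREBP transcription factors drive both routes. SCAP carries them from the endoplasmic reticulum to the Golgi for cleavage when sterols are scarce, and the INSIG proteins hold SCAP back when sterols are plentiful. SREBP-2, the product of *SREBF2*, is best known for the sterol genes, and SREBP-1, the product of *SREBF1*, for the fatty acid genes. In the lung, fatty acid synthesis also feeds the lipids of surfactant.

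Levels are given as FPKM, a measure corrected for transcript length and library size, so that genes can be set beside each other per length. In each line, log2(FPKM + 1) with DEM and with vehicle was compared by limma for all genes whose mean reached 1 FPKM, and a gene was called at a Benjamini-Hochberg adjusted p under 0.05 across all genes tested. The pseudocount of 1 makes the log2 difference of a low gene smaller than its ratio. With 2 libraries a group, every adjusted p below comes from limma. The sums of FPKM differed by at most 1.18 times between libraries, and 12515 to 13573 genes per library reached 1 FPKM. Reads per library were not used here. The authors' base means, counts scaled to a common depth, summed to 13786938 in ABC1 and 13957320 in HCC4006 and lay between 22.9 and 31275 for the 32 genes. *NQO1*, *GCLM*, *TXNRD1*, *SRXN1* and *HMOX1*, textbook genes of the NRF2 and electrophile response, were called higher with DEM in both lines, 5 of 5 in each. The 6 epithelial markers summed to between 3440 and 5820 FPKM, whereas the fibroblast, immune and endothelial lists summed to at most 9.33, 0.715 and 0.236 FPKM, with *COL1A2* at 0 in all ABC1 libraries. The epithelial sum was lower with DEM, at 3670 to 4080 against 4970 to 5820 FPKM in ABC1 and at 3440 to 3490 against 4390 to 4580 FPKM in HCC4006, where *KRT7*, *KRT8* and *KRT18* were called lower. The epithelial adhesion gene *EPCAM* overlapped between the groups in both lines. It had 388 and 401 FPKM with vehicle and 398 and 389 FPKM with DEM in ABC1. In HCC4006 it had 234 and 255 FPKM with vehicle and 237 and 272 FPKM with DEM. *CDH1*, E-cadherin, overlapped in ABC1. In HCC4006 *CDH1* had 157.5 and 154.5 FPKM with vehicle and 144 and 139 FPKM with DEM, and was not called (adjusted p = 0.166 by limma). Both DEM libraries lay below both vehicle libraries for 4 of the 6 markers in ABC1 and 5 in HCC4006, *KRT19* among them in each line. Over all genes tested the shares were 28.2% and 35.3%. What part these lower epithelial levels took in the values below was not tested. In bulk libraries, fewer cells of a type and less RNA per cell cannot be told apart.

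In HCC4006 cells, 3 of the 18 sterol genes rose with DEM, 1 fell and 14 did not pass the test. *HSD17B7*, *MSMO1* and *MVD* rose by 1.42 to 1.66 times. *INSIG1* rose less, and *SREBF1*, *STARD4* and *TM7SF2* fell. Of the 32 genes tested, 4 were called higher (12.5%) and 3 lower (9.38%), while 8.45% of all 13542 genes tested in this line were called higher and 10.7% lower. These shares of the lipid genes were thus near those of all genes. The median log2 difference over the 32 genes was 0.13, beside -0.03 over all genes tested, with 20 genes above 0 and 12 below. Before adjustment, 14 of the 32 and 4985 of all 13542 genes tested had a p under 0.05 by limma.

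*HSD17B7*, the ketoreductase that acts on the C4 position of the sterol after demethylation, had 10.6 and 12.5 FPKM with vehicle and 18.8 and 19.6 FPKM with DEM. The log2 difference was 0.69 (standard error 0.111, adjusted p = 0.0131) by limma, adjusted after Benjamini and Hochberg, a 1.66-fold higher level. *MSMO1*, the methylsterol oxidase that starts removal of the C4 methyl groups, had 84.0 and 82.2 FPKM with vehicle and 116 and 121 FPKM with DEM, a log2 difference of 0.51 (standard error 0.0661, adjusted p = 0.00747) by limma. Both DEM libraries lay above both vehicle libraries for *HSD17B7* and for *MSMO1*, and both enzymes act in C4 demethylation. *NSDHL*, the dehydrogenase between them, had 66.0 and 66.4 FPKM with vehicle and 66.5 and 68.9 FPKM with DEM and a log2 difference of 0.03 (adjusted p = 0.764) by limma, which did not pass. *MVD*, mevalonate diphosphate decarboxylase, which makes isopentenyl diphosphate early in the route, went from 60.9 and 57.1 FPKM to 87.4 and 80.6 FPKM, a log2 difference of 0.50 (standard error 0.0783, adjusted p = 0.0122) by limma. *TM7SF2*, a sterol reductase acting on the C14 double bond, went the other way, with 19.3 and 19.1 FPKM with vehicle and 15.1 and 13.4 FPKM with DEM. Its log2 difference of -0.41 (standard error 0.0979, adjusted p = 0.0387) by limma made it the lone sterol enzyme called lower here. The lamin B receptor gene *LBR*, whose protein carries the same reductase activity, had 19.7 and 21.3 FPKM with vehicle and 24.5 and 28.2 FPKM with DEM and a log2 difference of 0.34 (adjusted p = 0.0674) by limma. So the DEM libraries of *TM7SF2* lay below the vehicle libraries, and those of *LBR*, which did not pass the test, above them.

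The other 14 sterol genes did not pass. Their log2 differences ran from -0.20 to 0.26. *EBP*, the sterol isomerase, was lowest among them with 92.6 and 94.9 FPKM with vehicle and 79.96 and 82.8 FPKM with DEM (adjusted p = 0.0850 by limma). *CYP51A1*, the lanosterol demethylase, and *IDI1*, the isopentenyl diphosphate isomerase, were highest, at 0.26 (adjusted p = 0.0649 by limma) and 0.26 (adjusted p = 0.0806 by limma). *HMGCS1*, *FDPS* and *FDFT1*, which lead to mevalonate, farnesyl diphosphate and squalene and are among the most abundant of the 18, had values of -0.04, -0.06 and -0.01. *FDFT1*, for instance, had 157 and 156 FPKM with vehicle and 151 and 159 FPKM with DEM. The median log2 difference of the 18 sterol genes was 0.11, with 11 above 0 and 7 below.

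Within the SREBP pathway, *SREBF1* showed the widest drop. Its FPKM went from 55.9 and 46.9 FPKM to 31.7 and 27.4 FPKM in HCC4006, a log2 difference of -0.78 (standard error 0.117, adjusted p = 0.0112) by limma, and the vehicle mean was 1.74 times the DEM mean. *STARD4*, a carrier that moves cholesterol between membranes, fell from 18.5 and 20.3 FPKM to 11.96 and 13.3 FPKM, a log2 difference of -0.58 (standard error 0.103, adjusted p = 0.0172) by limma. *INSIG1*, itself a gene that SREBPs switch on, rose from 59.1 and 57.2 FPKM to 68.4 and 72.6 FPKM, a log2 difference of 0.27 (standard error 0.0725, adjusted p = 0.0491) by limma. The 2 DEM libraries lay outside the range of the vehicle libraries for all 3 genes. *SREBF2* had 41.3 and 38.7 FPKM with vehicle and 48.3 and 47.8 FPKM with DEM, and *SCAP* had 14.1 and 12.9 FPKM with vehicle and 17.2 and 16.7 FPKM with DEM. Their log2 differences of 0.26 (adjusted p = 0.0631) and 0.31 (adjusted p = 0.0691) by limma did not pass, although both DEM libraries were the higher ones. The genes of the paired transcription factors thus stood on opposite sides of their vehicle levels, *SREBF1* below and *SREBF2* above. *INSIG2* had a log2 difference of -0.06 (adjusted p = 0.754) by limma.

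Of the 7 genes called in HCC4006, *INSIG1* and *TM7SF2* were not called when any 1 of the 4 libraries was left out, and the other 5 each lost the call without at least 1 of them. Without the minimum of 1 FPKM, none of the 7 was called, and in a model of all 8 libraries *MSMO1*, *INSIG1* and *TM7SF2* were not. *INSIG1* was also not called with a pseudocount of 0.1, and neither *INSIG1* nor *TM7SF2* was called without the mean-variance trend. With rescaling by the median of ratios, *CYP51A1* and *SREBF2* were called higher too.

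**Figure D1:**
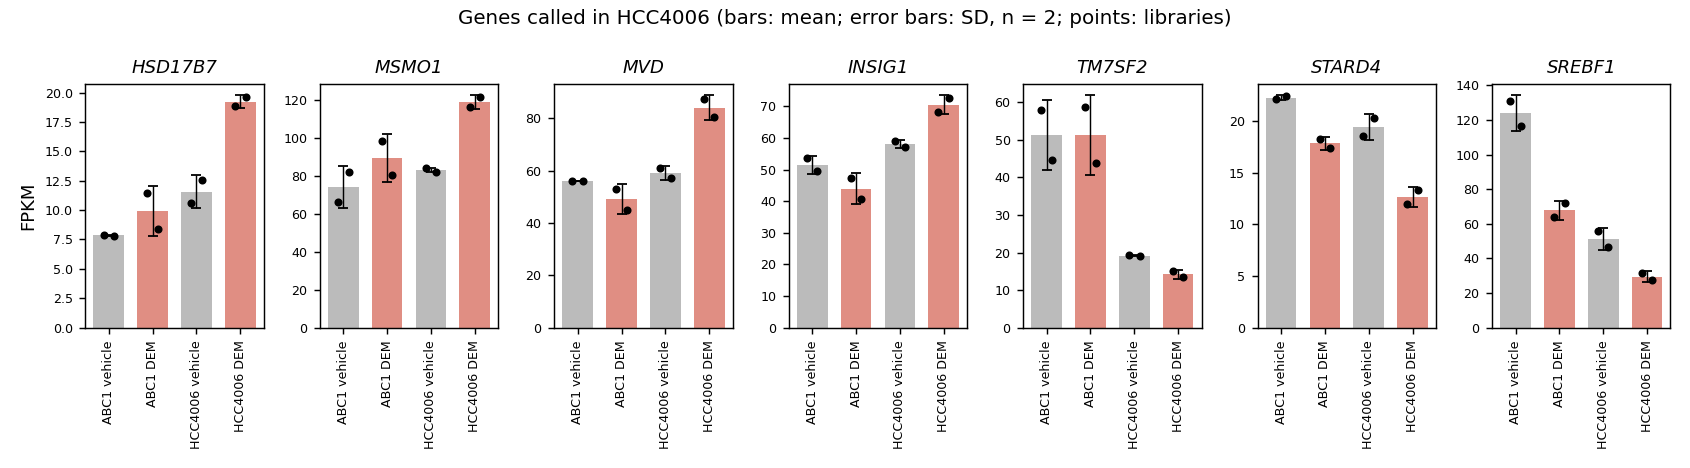
FPKM (y axis, from 0, its own scale in each panel) of the 7 genes called in HCC4006, in the 4 groups on the x axis. Bars are means, error bars SD with n = 2 and points the libraries. In HCC4006 both DEM points lie above both vehicle points for *HSD17B7*, *MSMO1*, *MVD* and *INSIG1* and below them for *TM7SF2*, *STARD4* and *SREBF1*.

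The promoters of the 3 sterol enzymes that rose in HCC4006 and of *SREBF1*, which fell, are shown for comparison, since a CCAAT box, the letters bound by the factor NF-Y that works beside SREBPs, was common in the sterol genes. Each runs 5′ to 3′ on the gene's strand from 250 bases before the start site to base 50 of the transcript, by GENCODE on GRCh37, and capitals mark CCAAT on either strand (CCAAT or ATTGG). The windows are chr1:162760242-162760541 on the plus strand for *HSD17B7*, chr4:166248571-166248870 on the plus strand for *MSMO1*, chr16:88729450-88729749 on the minus strand for *MVD* and chr17:17740251-17740550 on the minus strand for *SREBF1*.
HSD17B7: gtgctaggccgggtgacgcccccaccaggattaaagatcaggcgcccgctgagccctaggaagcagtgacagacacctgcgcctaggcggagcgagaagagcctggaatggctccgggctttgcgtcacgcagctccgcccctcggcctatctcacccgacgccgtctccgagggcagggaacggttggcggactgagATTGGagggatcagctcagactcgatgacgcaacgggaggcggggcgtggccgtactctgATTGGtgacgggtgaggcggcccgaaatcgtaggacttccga
MSMO1: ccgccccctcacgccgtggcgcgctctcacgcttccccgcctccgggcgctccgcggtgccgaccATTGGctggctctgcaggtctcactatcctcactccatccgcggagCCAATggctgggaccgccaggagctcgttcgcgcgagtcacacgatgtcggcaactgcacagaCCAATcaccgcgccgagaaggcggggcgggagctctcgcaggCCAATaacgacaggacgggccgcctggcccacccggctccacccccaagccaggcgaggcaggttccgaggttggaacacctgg
MVD: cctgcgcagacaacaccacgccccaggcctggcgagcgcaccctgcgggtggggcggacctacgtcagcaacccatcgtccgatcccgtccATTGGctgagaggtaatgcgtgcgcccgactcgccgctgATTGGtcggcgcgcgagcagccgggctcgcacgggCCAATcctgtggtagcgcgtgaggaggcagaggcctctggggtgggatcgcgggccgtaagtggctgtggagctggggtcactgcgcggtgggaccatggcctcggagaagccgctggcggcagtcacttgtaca
SREBF1: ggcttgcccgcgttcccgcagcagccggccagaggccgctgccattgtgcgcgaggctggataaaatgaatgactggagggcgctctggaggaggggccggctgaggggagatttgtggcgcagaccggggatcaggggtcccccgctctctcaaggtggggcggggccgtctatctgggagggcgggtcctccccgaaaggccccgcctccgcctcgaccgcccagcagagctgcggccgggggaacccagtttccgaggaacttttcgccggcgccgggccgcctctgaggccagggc

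CCAAT stood 2 times in the window of *HSD17B7*, 4 times in that of *MSMO1* and 3 times in that of *MVD*, and it was not among the letters of the *SREBF1* window. It was found on either strand in 21 of the 32 promoters (65.6%), of which 15 belong to the 18 sterol genes, and in 36.0% of the 19894 promoters of protein-coding genes. *TM7SF2* and *STARD4*, which fell, and *INSIG1*, which rose, also held it, so its presence did not divide the genes by direction. A sterol regulatory element written as TCACNCCAC stood in 2 of the 32 (6.25%), *FASN* and *SREBF2*, against 1.22% of all promoters. The core of the antioxidant response element that NRF2 binds, written as TGACNNNGC, stood in 3 of the 32 (9.38%), *EBP*, *AACS* and *INSIG2*, against 14.01% of all. None of these 3 genes was called in either line. Both strands were searched for each motif, and a match of letters is a description, not a site. Each window was taken at the start of the gene's canonical transcript, and other start sites of a gene, *SREBF1* included, were not searched.

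In ABC1 cells, most of the lipid genes lay below their vehicle level with DEM, but none passed the test. Of 31 genes tested, 0 were called higher and 0 lower, beside 0.768% of all 12635 genes called higher and 0.435% called lower. The split of calls over all genes, 97 higher and 55 lower, became 177 and 180 with scaling to the upper quartile. Before adjustment, 11 of the 31 and 2771 of all 12635 genes tested had a p under 0.05 by limma. The median log2 difference was -0.20, beside -0.02 over all genes, with 24 genes below 0 and 7 above. *FADS2* did not reach the minimum of 1 FPKM in this line. Both DEM libraries lay below both vehicle libraries for 18 of the 31 genes (28.2% of all genes tested) and above them for 3 (25.5% of all genes tested). In HCC4006 the corresponding counts were 6 of 32 below (35.3% of all genes tested) and 17 above (29.3% of all genes tested).

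**Figure D2:**
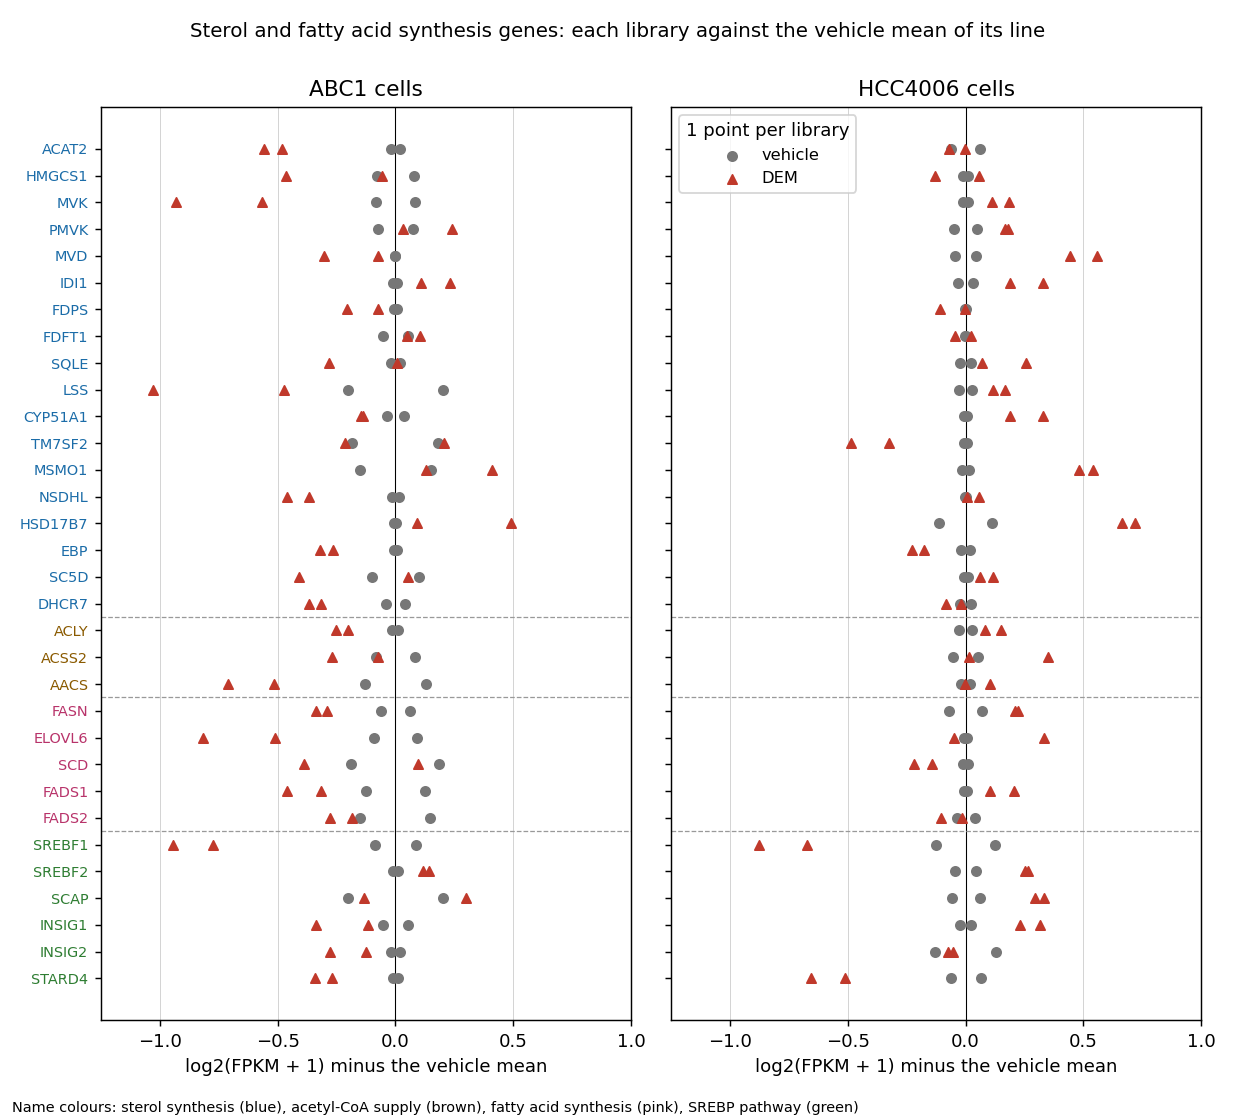
Each library's log2(FPKM + 1) minus the mean of the vehicle libraries of its line (x axis) for the 32 genes (y axis, grouped by role), with vehicle as grey circles and DEM as red triangles. In ABC1 the triangles lie left of 0 for most genes, down to *LSS* and *SREBF1*. In HCC4006 they lie right of 0 for most, with *SREBF1*, *STARD4* and *TM7SF2* to the left.

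*SREBF1* had the widest difference in ABC1 too, from 131 and 117 FPKM with vehicle to 63.8 and 71.8 FPKM with DEM, a log2 difference of -0.86 (standard error 0.135, adjusted p = 0.0564) by limma. The DEM libraries stood apart from the vehicle libraries, and the ratio of the vehicle mean to the DEM mean was 1.83, beside 1.74 in HCC4006. *STARD4* had 22.1 and 22.4 FPKM with vehicle and 18.3 and 17.4 FPKM with DEM, a log2 difference of -0.31 (adjusted p = 0.218) by limma. At the other end of the SREBP pathway, *SREBF2* had 28.3 and 28.0 FPKM with vehicle and 31.1 and 30.6 FPKM with DEM and a log2 difference of 0.13 (adjusted p = 0.555) by limma. *SCAP*, with 28.4 and 37.8 FPKM with vehicle and 29.7 and 40.5 FPKM with DEM, gave overlapping groups and a log2 difference of 0.08 (adjusted p = 0.849) by limma. *INSIG1* had 53.6 and 49.6 FPKM with vehicle and 47.4 and 40.6 FPKM with DEM, a log2 difference of -0.23 (adjusted p = 0.383) by limma, below 0 where it was above 0 in HCC4006.

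Among the sterol genes of ABC1, the lowest values were those of *LSS*, the cyclase that closes squalene epoxide to lanosterol, and of *MVK*, mevalonate kinase. *LSS* had 44.8 and 33.6 FPKM with vehicle and 27.6 and 18.5 FPKM with DEM, a log2 difference of -0.75 (standard error 0.233, adjusted p = 0.151) by limma. *MVK* had 39.6 and 35.2 FPKM with vehicle and 24.8 and 19.1 FPKM with DEM, a log2 difference of -0.75 (standard error 0.165, adjusted p = 0.0904) by limma. For each gene both DEM libraries lay below both vehicle libraries, and the 2 DEM libraries of *LSS* had a SD of 6.47 FPKM, beside 7.95 FPKM for vehicle. *HSD17B7* and *MSMO1* had the highest values in this line as in HCC4006, at 0.29 (adjusted p = 0.386) and 0.27 (adjusted p = 0.397) by limma. *HSD17B7* had 7.88 and 7.83 FPKM with vehicle and 11.5 and 8.43 FPKM with DEM, and *MSMO1* had 66.2 and 81.9 FPKM with vehicle and 98.3 and 80.6 FPKM with DEM. The groups did not overlap for *HSD17B7* and overlapped for *MSMO1*. The other 14 sterol genes ran from -0.52 for *ACAT2*, the acetoacetyl-CoA thiolase, to 0.17 for *IDI1*. *MVD*, called higher in HCC4006, had 55.9 and 55.9 FPKM with vehicle and 53.1 and 45.1 FPKM with DEM and a log2 difference of -0.19 (adjusted p = 0.452) by limma. The 18 sterol genes had a median log2 difference of -0.16, with 13 below 0 and 5 above.

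The absence of calls in ABC1 depended on the setting. Among the alternatives, *SREBF1* was called lower with a minimum of 5 FPKM or with either rescaling of the libraries. A model of all 8 libraries, which shares 1 spread between the lines, called 7 of these genes lower (*ACAT2*, *MVK*, *NSDHL*, *DHCR7*, *AACS*, *ELOVL6* and *SREBF1*) and 0 higher. Of all 13682 genes tested in that model, 1494 were called, 756 lower and 738 higher. With the replicate number as a block, 10 were called lower and 0 higher. Of all 12635 genes tested with the block, 2348 were called, 1163 lower and 1185 higher. The labels tie no replicate number to a culture or day.

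The supply of acetyl-CoA and the fatty acid branch were set beside the sterol branch. In ABC1 all 4 fatty acid genes tested and all 3 supply genes lay below 0, with median log2 differences of -0.35 and -0.23, against -0.16 for the sterol genes. In HCC4006 the medians were 0.14 for 5 fatty acid genes, 0.12 for the supply genes and 0.11 for the sterol genes, and 0 genes of the first pair of groups were called. The medians of the branches thus lay on the same side of 0 within a line, and the difference between branches was not given a test. The median of the sterol genes in ABC1 was -0.29 without DEM library 0 and -0.07 without DEM library 1. Without DEM library 1 of HCC4006 the median of its fatty acid genes was -0.05.

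*ELOVL6*, which lengthens the saturated products of fatty acid synthase, had the lowest value of the branch in ABC1, with 34.6 and 39.5 FPKM with vehicle and 25.6 and 20.5 FPKM with DEM and a log2 difference of -0.67 (standard error 0.156, adjusted p = 0.0985) by limma. In HCC4006 it had 19.4 and 19.2 FPKM with vehicle and 18.6 and 24.6 FPKM with DEM, where the DEM libraries lay on both sides of the vehicle libraries. *FASN*, fatty acid synthase itself, had 199 and 182 FPKM with vehicle and 156 and 151 FPKM with DEM in ABC1, a log2 difference of -0.31 (adjusted p = 0.222) by limma. In HCC4006 it had 116 and 105 FPKM with vehicle and 129.5 and 128 FPKM with DEM, a log2 difference of 0.22 (adjusted p = 0.0915) by limma. *FASN* was thus lower in both DEM libraries of ABC1 and higher in both of HCC4006, and neither difference passed. *SCD*, the desaturase that makes oleate, was the most abundant of the 32 genes in ABC1, with 787 and 607 FPKM with vehicle and 739 and 527 FPKM with DEM and a log2 difference of -0.15 (adjusted p = 0.742) by limma. Its groups overlapped in ABC1, whereas in HCC4006 it had 132 and 134 FPKM with vehicle and 114 and 120.1 FPKM with DEM, with no overlap and a log2 difference of -0.18 (adjusted p = 0.103) by limma. *FADS1*, the delta-5 desaturase of polyunsaturated fatty acids, had 1.60 and 2.09 FPKM with vehicle and 1.06 and 1.27 FPKM with DEM in ABC1 and 98.3 and 97.5 FPKM with vehicle and 113 and 105 FPKM with DEM in HCC4006, with log2 differences of -0.39 (adjusted p = 0.359) and 0.15 (adjusted p = 0.167) by limma. *FADS2*, the delta-6 desaturase, had 145 and 138 FPKM with vehicle and 131 and 139.7 FPKM with DEM in HCC4006, a log2 difference of -0.06 (adjusted p = 0.560) by limma.

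Of the supply genes, *AACS*, which activates acetoacetate, had 4.64 and 5.76 FPKM with vehicle and 2.77 and 3.32 FPKM with DEM in ABC1, a log2 difference of -0.61 (standard error 0.182, adjusted p = 0.143) by limma. In HCC4006 its groups overlapped, with 14.7 and 14.2 FPKM with vehicle and 14.4 and 15.6 FPKM with DEM and a log2 difference of 0.05 (adjusted p = 0.731) by limma. *ACLY*, which splits citrate to acetyl-CoA, had 95.4 and 97.2 FPKM with vehicle and 80.7 and 83.6 FPKM with DEM in ABC1 and 88.3 and 85.1 FPKM with vehicle and 91.7 and 96.3 FPKM with DEM in HCC4006, log2 differences of -0.23 (adjusted p = 0.319) and 0.12 (adjusted p = 0.273) by limma. *ACSS2*, which makes acetyl-CoA from acetate, had log2 differences of -0.17 (adjusted p = 0.509) in ABC1 and 0.18 (adjusted p = 0.390) in HCC4006 by limma, with overlapping groups in both.

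The response of the lines was compared by the interaction of line and treatment in a model of all 8 libraries. Of 32 genes tested, 0 were called, beside 0.307% of all 13682 genes called with a higher response in HCC4006 and 0.329% with a lower one. Before adjustment the p by limma was under 0.05 for 13 of the 32 and for 2068 of all 13682 genes tested. The response of HCC4006 was above that of ABC1 for 28 of the 32 genes and below it for 4, with a median of 0.28 on the log2 scale, beside -0.02 over all genes. *MVK* had a difference in response of 0.90 (standard error 0.191, adjusted p = 0.0940) by limma. Its 95% interval before adjustment was 0.452 to 1.34. *MVD* followed with the next lowest p, at 0.69 (standard error 0.149, adjusted p = 0.0968) by limma and an interval of 0.341 to 1.04. *LSS* and *ELOVL6* had values of 0.89 (adjusted p = 0.201) and 0.81 (adjusted p = 0.163) by limma. *SREBF1*, which lay lower with DEM in both lines, had a difference in response of 0.08 (adjusted p = 0.892) by limma, with an interval of -0.347 to 0.513. For the genes called in HCC4006 the test did not show a response other than that of ABC1, and a p that misses the threshold does not show that the responses were alike.

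By sign, 14 of the 31 genes tested in both lines lay below 0 in ABC1 and above 0 in HCC4006, 10 lay below 0 in both, 6 above 0 in both, and *FDFT1* above 0 in ABC1 and below 0 in HCC4006. Of all 11539 genes tested in both lines, 14.8% lay below 0 in ABC1 and above 0 in HCC4006. The shares of all genes with the other combinations of sign were not counted. For 9 of the 31 genes (3.09% of all 11539) the DEM libraries lay entirely below the vehicle range in ABC1 and entirely above it in HCC4006. Among them were *MVK*, *MVD*, *LSS*, *ACLY*, *FASN* and *INSIG1*.

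**Figure D3:**
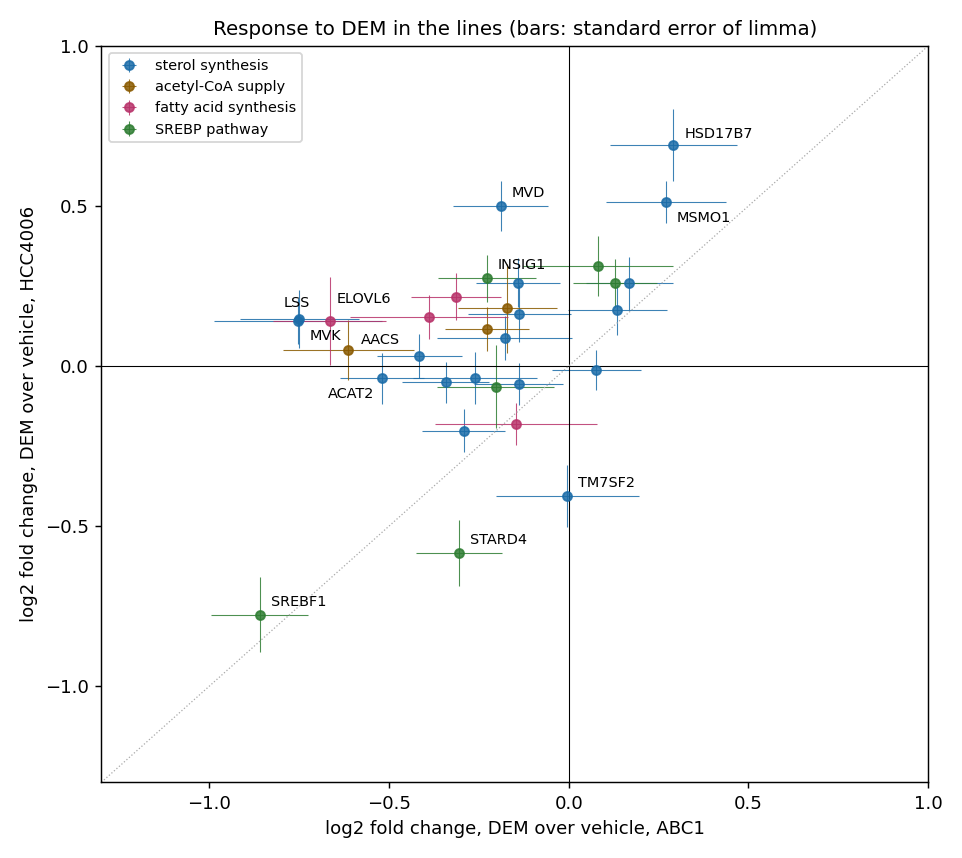
Log2 difference of DEM and vehicle in ABC1 (x axis) and HCC4006 (y axis) for the 31 genes tested in both lines, coloured by role, with bars for the standard error and a dotted line where the lines respond equally. Genes called in HCC4006 or with a log2 difference beyond 0.5 in size in ABC1 are named. In the upper left lie 14 genes, among them *MVK*, *LSS* and *MVD*, and *SREBF1* lies near the dotted line at the lower left.

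The untreated lines differed in some of these genes before any DEM, in a smaller share than over all genes. Of 32 genes, 9 (28.1%) were called higher in HCC4006 and 9 (28.1%) lower, beside 36.8% and 30.2% of all 13682 genes. The median log2 difference of HCC4006 over ABC1 was 0.06, and 0.07 over all genes, a median that became -0.04 with scaling to the upper quartile. *FADS1* had 1.60 and 2.09 FPKM in ABC1 and 98.3 and 97.5 FPKM in HCC4006, a 53.1-fold difference (log2 difference 5.13 (adjusted p = 4.40e-08) by limma). *FADS2* had 1.02 and 0.644 FPKM and 145 and 138 FPKM, a log2 difference of 6.29 (adjusted p = 2.62e-08) by limma. The desaturases of polyunsaturated fatty acids were thus near the floor of 1 FPKM in ABC1 and among the abundant genes of HCC4006. *SCD* went the other way, with 787 and 607 FPKM in ABC1 and 132 and 134 FPKM in HCC4006 (5.25-fold, log2 difference -2.37 (adjusted p = 1.52e-05) by limma). *SREBF1* had 131 and 117 FPKM in ABC1 and 55.9 and 46.9 FPKM in HCC4006, with a log2 difference of -1.26 (adjusted p = 8.46e-05) by limma. In ABC1 *SREBF1* with DEM, at 63.8 and 71.8 FPKM, was still above its vehicle level in HCC4006.

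*FASN*, *ELOVL6*, *ACSS2*, *SCAP*, *MVK*, *TM7SF2* and *SQLE*, the squalene epoxidase, were also lower in untreated HCC4006, with log2 differences of -1.53 for *ACSS2* to -0.62 for *SQLE*. *AACS* was 2.78 times higher in HCC4006 (4.64 and 5.76 FPKM in ABC1 and 14.7 and 14.2 FPKM in HCC4006). *PMVK*, *CYP51A1*, *NSDHL*, *HSD17B7*, *SREBF2* and *INSIG2* were called higher in HCC4006, with log2 differences from 0.28 to 0.64, of which *PMVK* kept the call in 8 and *HSD17B7* in 10 of 16 alternatives. Both lost it without a minimum, with scaling to the upper quartile and without vehicle library 0 of ABC1 or vehicle library 1 of HCC4006, *PMVK* also without the trend or any other HCC4006 library, and *HSD17B7* also without vehicle library 1 of ABC1. By branch, 5 of 5 fatty acid genes differed between the untreated lines, 3 lower (60%) and 2 higher (40%) in HCC4006. Of the 18 sterol genes 7 differed, 3 lower (16.7%) and 4 higher (22.2%). The shares over all genes were 30.2% lower and 36.8% higher. *FDFT1*, *IDI1*, *MVD*, *EBP*, *ACAT2* and *FDPS* had log2 differences of between -0.01 and 0.11.

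**Figure D4:**
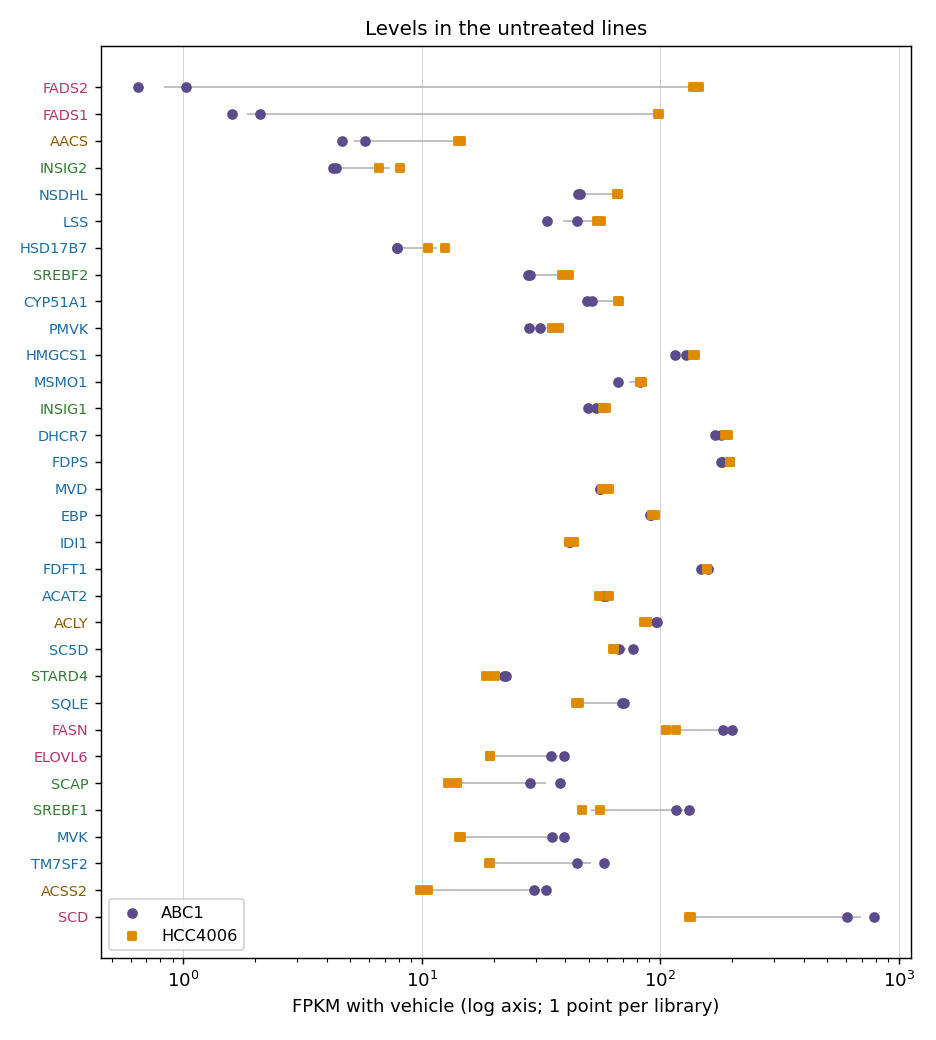
FPKM of the 32 genes in the vehicle libraries (x axis, log scale, 1 point per library) of ABC1 (purple circles) and HCC4006 (orange squares), ordered by the log2 difference of the lines, with a grey line between the group means. *FADS2* and *FADS1* at the top lie near 1 FPKM in ABC1 and near 100 FPKM in HCC4006, and *SCD* at the bottom is highest in ABC1.

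Other genes of lipid synthesis outside the list, 35 in all, were counted beside it. In ABC1 0 of 33 tested were called, beside 0.768% of all genes called higher and 0.435% lower. An unadjusted p under 0.05 by limma was found for 7 of the 33 and for 2771 of all 12635 genes. The median log2 difference of the 33 was -0.03. In HCC4006 4 of 33 (12.1%) were called higher and 1 (3.03%) lower, beside the 8.45% and 10.7% of all genes, with a median of 0.09. A difference in response between the lines was called for 0 of 34. Over all genes the response in HCC4006 was called higher for 0.307% and lower for 0.329%. *ME1*, malic enzyme, which supplies NADPH for fatty acid synthesis, rose in HCC4006 from 29.3 and 29.9 FPKM to 61.6 and 66.3 FPKM, a log2 difference of 1.08 (standard error 0.0776, adjusted p = 0.00163) by limma. In ABC1 it stood at 0.331 and 0.209 FPKM with vehicle and at 0.74 and 0.52 FPKM with DEM, under the minimum. *FADS3*, a relative of the desaturases above, rose from 59.8 and 50.1 FPKM to 97.9 and 89.6 FPKM in HCC4006, a log2 difference of 0.76 (adjusted p = 0.00858) by limma. In ABC1 *FADS3* had 1.93 and 2.18 FPKM with vehicle and 4.31 and 5.62 FPKM with DEM. Both DEM libraries were thus the higher ones there too, although it was not called. *ACSL1*, which activates long fatty acids with coenzyme A, rose with a log2 difference of 0.37 (adjusted p = 0.0495) by limma. Among genes of SREBP processing, *SPRING1*, a factor needed for SREBP activation, rose with 0.39 (adjusted p = 0.0268) and *ERLIN1*, of the endoplasmic reticulum, fell with -0.38 (adjusted p = 0.0489), both log2 differences by limma in HCC4006. The genes of sterol efflux and storage and those of isoprenoid side routes had 0 calls in either line, of 5 and 6 genes tested in HCC4006.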

How the data were processed

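Total RNA of ABC1 and HCC4006 cells was polyA-selected and made into strand-specific libraries by the authors, who deposited FPKM values per gene identifier for each of 8 libraries. The study's methods name TopHat and Cufflinks with hg19, whereas the submitters' processing notes list, without roles, bcl2fastq 2.15.0, cutadapt 1.15, STAR 2.5.3a, SAMtools, Cuffnorm, HTSeq, DESeq2 and R 3.2.0 with hg19 and GRCh37.p13. The authors' comparison tables also hold a base mean per gene (a signal, the mean count scaled to a common depth, deposited pooled over a line) and their own fold changes and p-values, which were not used. Whether antisense genes share reads depends on how strand was counted, which is not given in the sources used here. Groups followed the sample titles. Genes whose mean over the libraries of a fit reached 1 FPKM were tested with limma 3.58.1 in R 4.3.3 (values as log2(FPKM + 1), mean-variance trend on) and Benjamini-Hochberg adjustment over all genes tested, and called at an adjusted p under 0.05. Each line was fitted on its 4 libraries. The difference between the lines and the untreated lines were fitted on all 8. No pair of libraries was identical. Symbols, positions and promoters came from GENCODE on GRCh37. The members and lists were chosen with earlier results of these data known. Full values are given for members called in either line and for the 2 highest and 2 lowest of each branch, the others by range and count, and for at most 3 genes of each further list. Alternatives were pseudocounts of 0.1 and 0.5, no minimum or 5 FPKM, median-of-ratios or upper-quartile rescaling, no trend, a replicate block, all 8 libraries in one fit, and each library left out.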

Additional observations from a re-analysis of the deposited data

How the results depend on the processing

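The values were FPKM and not counts, so read depth was not modelled, and each group had only 2 libraries. How far either limited what could be called was not tested. In ABC1 the 152 genes called became 0 without a minimum (3883 at an unadjusted p under 0.05 by limma), 231 with a minimum of 5 FPKM, 299 with the median of ratios, 357 with the upper quartile, 33 without the trend, 1494 in the model of all 8 libraries and 18 to 69 without 1 library. Members called lower numbered 0, but 1 (*SREBF1*) with a minimum of 5 FPKM, the median of ratios or the upper quartile and 7 in the model of all 8 libraries. Over all genes, these settings in turn called 94, 115, 180 and 756 genes lower in ABC1. In HCC4006 the 2591 genes called became 370 without a minimum, 1553 in the model of all 8 libraries and 634 to 1028 without 1 library. The 4 members called higher became 0 without a minimum, 2 in the model of all 8 libraries and 1 to 2 without 1 library, and the 3 called lower became 0 and 1 without a minimum and without 1 library. *HSD17B7* kept its call without vehicle library 1, *MVD* without vehicle library 0 or DEM library 1, *MSMO1* without any library but vehicle library 1, *STARD4* without DEM library 1, and *SREBF1* without any library but DEM library 1. The 87 genes with a difference between the lines became 20 and 51 with pseudocounts of 0.1 and 0.5, 403 without a minimum and 4 to 41 without 1 library, and 0 members were called in each. With the median of ratios, 6 members were called higher in HCC4006 (*CYP51A1* and *SREBF2* were added) and 3 lower. That setting called 1279 genes higher and 1240 lower over all genes in this line. Why these counts moved was not tested.

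Median log2 differences of the branches moved in ABC1 to -0.199 (acetyl-CoA supply, minimum of 5 FPKM), -0.258 (acetyl-CoA supply, upper quartile), -0.463 (fatty acid synthesis, pseudocount 0.1), -0.24 (SREBP pathway, pseudocount 0.1) and -0.243 (SREBP pathway, upper quartile). In HCC4006 they moved with the median of ratios to 0.144, 0.145 and 0.125 for sterol synthesis, acetyl-CoA supply and the SREBP pathway. Without 1 library the ranges in ABC1 were -0.293 to -0.0661, -0.268 to -0.24 and -0.308 to -0.131 for those same branches, and in HCC4006 0.0888 to 0.108, 0.0807 to 0.128 and 0.0514 to 0.14, with -0.0484 to 0.147 for fatty acid synthesis.

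Log2 differences that were not called changed sign for some genes: *TM7SF2* in ABC1 with the median of ratios 0.0113, *FDFT1* in HCC4006 with the median of ratios 0.017, *SCD* for the difference in response with the upper quartile 0.0132, for untreated HCC4006 over ABC1 with the median of ratios *IDI1* -0.0128 and *FDFT1* -0.0157, for untreated HCC4006 over ABC1 with the upper quartile *MVD* -0.0545, *IDI1* -0.0966, *FDPS* -0.0233, *FDFT1* -0.101, *EBP* -0.0809 and *DHCR7* -0.0139. Without 1 library, signs changed in ABC1 *SQLE* -0.281 to 0.00627, *TM7SF2* -0.213 to 0.205, *SC5D* -0.409 to 0.0524, *SCD* -0.389 to 0.0971 and *SCAP* -0.135 to 0.299, in HCC4006 *ACAT2* -0.1002 to 0.0247, *HMGCS1* -0.132 to 0.056, *FDFT1* -0.047 to 0.0213, *AACS* -0.00272 to 0.104, *ELOVL6* -0.0484 to 0.332 and *INSIG2* -0.194 to 0.0657, for the difference in response *PMVK* -0.0644 to 0.142, *SCD* -0.279 to 0.207 and *SREBF1* -0.0406 to 0.207, for untreated HCC4006 over ABC1 *ACAT2* -0.0719 to 0.053, *IDI1* -0.000602 to 0.0663 and *FDFT1* -0.0235 to 0.0849. No called log2 difference changed sign in any alternative run.

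Libraries of a line share replicate numbers 0 and 1 across vehicle and DEM, with nothing in the labels that ties them to a culture or day. The deviations of same-numbered libraries from their group means correlated with r = 0.258 over 12635 genes in ABC1 and 0.0544 over 13542 genes in HCC4006. With 2 pairs a line this was not taken to pair the libraries, although those of ABC1 deviated together. With the replicate number as a block, 2348 genes were called in ABC1, 1163 lower and 1185 higher. Among them were 10 members lower (*ACAT2*, *MVK*, *LSS*, *NSDHL*, *EBP*, *DHCR7*, *AACS*, *FASN*, *ELOVL6* and *SREBF1*) and 0 higher. In HCC4006 the block gave 3304 genes, 1847 lower and 1457 higher, with 7 members higher (*IDI1*, *CYP51A1* and *SREBF2* were added) and 3 lower. In the untreated lines *HSD17B7* was not called with the block. For the difference between the lines it gave 13 genes and 0 members. Under the block the untreated log2 differences were -0.00992 for *HMGCS1* and -0.0454 for *IDI1*.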

Other observations

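The *FADS* desaturase genes, all higher in untreated HCC4006 than in untreated ABC1, lie together on chromosome 11 (GRCh37, *FADS2* at 61560452 to 61634826, *FADS1* at 61567099 to 61596790 and *FADS3* at 61640991 to 61659523). *SCD* lies on chromosome 10 and *SCD5* on chromosome 4. The annotated span of *FADS1* lies inside that of *FADS2*, on the opposite strand. The genes around them were looked at after the values were seen, and no test was made of the group. *FADS3* had 1.93 and 2.18 FPKM in untreated ABC1 and 59.8 and 50.1 FPKM in untreated HCC4006, as with *FADS1* and *FADS2*. *FEN1*, a nuclease of DNA replication whose annotated span overlaps the start of *FADS2*, had 39.4 and 41.3 FPKM in ABC1 and 43.7 and 45.5 FPKM in HCC4006. *TMEM258* on the other side of *FEN1* had 38.9 and 30.8 FPKM in ABC1 and 18.3 and 16.1 FPKM in HCC4006. Within 100000 bases of the 3 genes lay 7 other protein-coding genes with a value. Beside *FEN1* and *TMEM258* these were *DAGLA*, *MYRF*, *RAB3IL1* and *FTH1*, all with lower vehicle means in ABC1, and *BEST1*, under 1 FPKM in both lines. The largest of these, the ferritin gene *FTH1*, had 1540.0 and 2291 FPKM in ABC1 and 6444 and 5778 FPKM in HCC4006. *SCD5*, a second stearoyl-CoA desaturase, had 71.9 and 81.1 FPKM in untreated ABC1 and 4.26 and 4.77 FPKM in untreated HCC4006, the same direction as *SCD*. *ACSL4*, which activates polyunsaturated fatty acids, had 6.71 and 7.07 FPKM in untreated ABC1 and 119.8 and 119 FPKM in untreated HCC4006.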
